A study of Mus musculus with 12 samples.

Results

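The metalloproteases and their inhibitors were taken as all genes whose name on the array is Mmp, Adam, Adamts, Adamtsl or Timp followed by a number. Of the 34836 gene names on the array, 84 matched, and these genes were represented by 125 of the 55681 probes. There were 33 Adam, 23 Mmp, 19 Adamts, 5 Adamtsl and 4 Timp genes. The names alone decided, with no measured value.

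Matrix metalloproteases (Mmp) are zinc enzymes that cut collagens and other proteins of the extracellular matrix, and the tissue inhibitors of metalloproteases (Timp) bind to their catalytic site and block them. The Adam proteins sit in the cell membrane, where the active members release the outer parts of growth factors, Notch ligands and cadherins, and the secreted Adamts proteins cut proteoglycans, procollagens and other matrix proteins. The Adamtsl proteins resemble Adamts proteins but have no protease domain. Primitive endoderm gives rise to parietal endoderm, known for the thick basement membrane it lays down, and to visceral endoderm, an absorptive epithelium.

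The cells were mouse ES cells carrying Gata6GR, in which the transcription factor Gata6 is fused to a part of the glucocorticoid receptor and is activated by dexamethasone (Dex). RNA was collected at day 4 from *Sox7* (+/−) ES cells without Dex, *Sox7* (+/−) XEN-like cells with Dex, *Sox7* (−/−) ES cells without Dex and *Sox7* (−/−) XEN-like cells with Dex. XEN-like cells are ES cells turned towards extraembryonic endoderm, and the study asked whether this change needs *Sox7*. Each group had 3 one-colour Agilent arrays, 12 in all. All 4 groups carry the transgene, driven by the CAG promoter, and a deletion of at least 1 *Sox7* allele, and no wild-type cells were on the arrays. The *Sox7* (−/−) cells had been selected from the *Sox7* (+/−) line, and a single line stood for each genotype, so genotype and line cannot be told apart. Gata6GR activity and other effects of Dex cannot be told apart either.

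*Sox7* itself had a mean signal of 224% of the array's 75th percentile in *Sox7* (+/−) ES cells and 558% in *Sox7* (+/−) XEN-like cells, and was not well above background on any of the 6 *Sox7* (−/−) arrays. On Dex 5 of 6 pluripotency markers fell in each genotype, whereas *Klf4* rose 2.75-fold in *Sox7* (+/−) and 1.42-fold in *Sox7* (−/−) cells. In *Sox7* (+/−) cells 4 of 6 XEN markers rose, and 5 of 6 did in *Sox7* (−/−) cells. All 6 XEN markers were already well above background on the 6 arrays without Dex. The share of spots well above background was 41.7% to 52.3% per array, none was saturated, and replicates of a group correlated with Pearson's r between 0.982 and 0.996 across probes. Whether replicates were separate cultures is not given, and the source labels of the 3 *Sox7* (+/−) ES arrays all carry replicate number 1, so the p-values measure the spread between these arrays, which may be technical. The 3 *Sox7* (−/−) ES arrays and replicate 1 of the *Sox7* (−/−) XEN-like cells lay on slide 1 and all others on slide 2.

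A level is the processed signal of the gene's brightest tested probe, in percent of the 75th percentile of its array, and levels of different genes were not compared. A gene was tested when some group had a probe well above background on each of its 3 arrays, which held for 35 of the 84 members. Of these, 20 were well above background on all 12 arrays. Members that passed through a single group in which they are high had to differ between groups. Changes are log2 differences of group means from a fit with limma across all tested probes, with their standard error (SE). A member was called when the Benjamini-Hochberg adjusted p was under 0.05 and the change over 2-fold.

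Among members well above background on all 12 arrays, the inhibitor *Timp3* had the largest rise in *Sox7* (−/−) cells, and *Timp2* the largest in *Sox7* (+/−) cells. Of the 4 Timp genes 3 were tested, *Timp2* and *Timp3* rose on Dex in both genotypes, and *Timp1* rose in *Sox7* (−/−) cells. *Timp4* was not well above background on all 3 arrays of any group. The 250 bases before the start of the inhibitor genes and of *Mmp15*, the protease with the largest rise that was well above background on all 12 arrays, are shown as the windows of the inhibitors that rose and of that protease. Their responses were not all alike, and the promoters of the other members that rose are not shown. The sequences are from RefSeq on GRCm38.p6, 5′ to 3′ on the strand of the gene, and capitals mark a GATA motif (GATA with A or T before it and A or G after it) or a GC box (GGGCGG), on either strand.

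Timp1, chrX:20869916-20870165, plus strand: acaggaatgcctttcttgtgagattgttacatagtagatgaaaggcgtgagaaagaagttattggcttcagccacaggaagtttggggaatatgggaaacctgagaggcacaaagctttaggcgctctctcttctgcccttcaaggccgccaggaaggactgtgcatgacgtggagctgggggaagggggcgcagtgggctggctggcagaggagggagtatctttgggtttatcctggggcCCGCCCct
Timp2, chr11:118355412-118355661, minus strand: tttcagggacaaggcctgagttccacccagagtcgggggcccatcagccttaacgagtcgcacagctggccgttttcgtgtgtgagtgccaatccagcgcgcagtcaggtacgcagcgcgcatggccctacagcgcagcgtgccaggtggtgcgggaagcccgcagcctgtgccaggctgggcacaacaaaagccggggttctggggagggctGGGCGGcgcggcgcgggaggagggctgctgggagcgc
Timp3, chr10:86300162-86300411, plus strand: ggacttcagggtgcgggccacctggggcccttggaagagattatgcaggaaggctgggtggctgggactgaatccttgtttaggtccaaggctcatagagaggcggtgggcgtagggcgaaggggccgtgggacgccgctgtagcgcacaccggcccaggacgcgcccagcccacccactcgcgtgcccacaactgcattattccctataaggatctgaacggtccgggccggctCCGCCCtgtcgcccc
Mmp15, chr8:95352046-95352295, plus strand: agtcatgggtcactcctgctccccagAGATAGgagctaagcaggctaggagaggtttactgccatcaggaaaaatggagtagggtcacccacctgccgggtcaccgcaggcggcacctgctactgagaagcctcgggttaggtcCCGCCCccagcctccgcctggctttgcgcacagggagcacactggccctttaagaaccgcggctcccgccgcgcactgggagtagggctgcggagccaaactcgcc
Each of the 4 held 1 GC box, which 32.7% of 32851 mouse promoters of this length held. The GATA motif was in the *Mmp15* promoter, 224 bases before the start, and in none of the 3 Timp promoters, and 26.5% of all promoters held it. The letters AACAAT, a SOX motif held by 9.4% of all promoters, were in the *Timp1* promoter on either strand, and none of these promoters held the AP-1 motif TGANTCA (6.7% of all) or the glucocorticoid receptor motif AGAACA (16.1% of all). These are matches of letters and not binding sites.

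*Timp3*, the inhibitor known for staying bound to the matrix, had levels of 577%, 647% and 531% in *Sox7* (+/−) ES cells and of 2693%, 2909% and 2034% in their XEN-like counterparts. *Sox7* (−/−) cells had 79.0%, 78.6% and 85.8% without Dex and 3426%, 3609% and 4061% with Dex. The 4 groups did not overlap, and the *Sox7* (−/−) ES cells lay far below all others. The Dex response was a log2 change of 2.11 (SE 0.13, adjusted p = 3.4e-07) in *Sox7* (+/−) and 5.51 (SE 0.13, adjusted p = 2.6e-10) in *Sox7* (−/−) cells. This is a 4.31-fold and a 45.5-fold rise, and the responses differed by 3.40 (SE 0.19, adjusted p = 1.4e-06). Without Dex *Sox7* (−/−) cells were lower by 7.19-fold (log2 −2.85, adjusted p = 2.3e-07), and with Dex they were higher by 1.47-fold (log2 0.55, adjusted p = 0.011), which is under the 2-fold threshold. The probe lies at chr10:85811696-85811755 on mm9, as do the positions of all probes below.

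*Timp2*, which both inhibits Mmp2 and takes part in its activation at the cell surface, was at 1933%, 1919% and 1847% in *Sox7* (+/−) ES cells. With Dex the *Sox7* (+/−) levels were 12001%, 10202% and 10444%. *Sox7* (−/−) cells had 338%, 372% and 379% without Dex and 7202%, 6811% and 7335% with Dex. As for *Timp3*, the groups did not overlap and the *Sox7* (−/−) ES cells were lowest, but the *Sox7* (−/−) XEN-like cells stayed below the *Sox7* (+/−) XEN-like cells. The rise was 5.71-fold (log2 2.51, SE 0.08, adjusted p = 2.3e-09) in *Sox7* (+/−) and 19.6-fold (log2 4.29, SE 0.08, adjusted p = 5.1e-11) in *Sox7* (−/−) cells, a difference of 1.78 (SE 0.11, adjusted p = 3.3e-06). Between ES cells the genotype difference was −2.39 (adjusted p = 2.6e-08) and between XEN-like cells −0.61 (adjusted p = 0.00035). The main probe lies at chr11:118163146-118163205. The gene's second tested probe gave 2.58 and 4.77 for the Dex responses, −2.77 between ES cells and 2.19 for the difference in response, all called.

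*Timp1*, a secreted inhibitor, had levels of 1316%, 1406% and 1486% in *Sox7* (+/−) ES cells and of 2549%, 2483% and 3189% after Dex. In *Sox7* (−/−) cells they were 1298%, 1455% and 1316% without Dex and 3557%, 3374% and 3504% with Dex. The ES groups overlapped, and all 6 XEN-like arrays were above all 6 ES arrays. The rise passed the threshold in *Sox7* (−/−) cells (2.57-fold, log2 1.36, SE 0.10, adjusted p = 8.5e-07) and stayed just under 2-fold in *Sox7* (+/−) cells (1.94-fold, log2 0.96, SE 0.10, adjusted p = 1.5e-05). The difference between these responses did not pass the test (0.40, SE 0.14, adjusted p = 0.062).

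**Figure D1:**
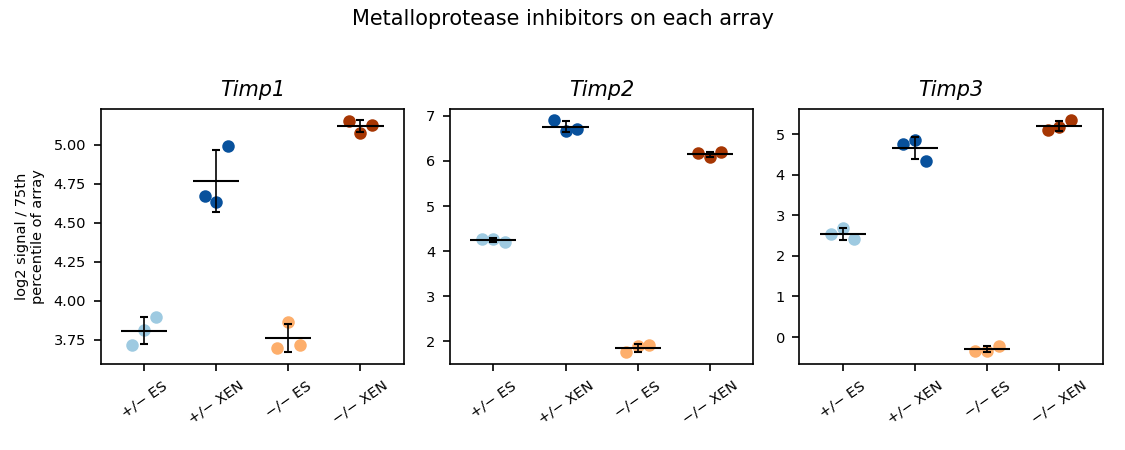
Levels of the 3 tested inhibitors on each array, as log2 of the signal relative to the array's 75th percentile, in Sox7 (+/−) and (−/−) ES and XEN-like cells. Points are arrays (n = 3 a group), lines group means and bars ± SD, and the vertical scale differs between panels. Timp2 and Timp3 are lowest in Sox7 (−/−) ES cells, and Timp1 is at like levels in both kinds of ES cells.

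Of 6 parietal endoderm markers, 5 rose on Dex in each genotype. Without Dex 2 of them were lower in the absence of *Sox7*, *Thbd* (log2 −2.37) and *Plat* (−1.44), and *Nid1* was higher by 0.57 (adjusted p = 6.5e-05), which is under 2-fold. Between XEN-like cells 0 of the 6 were called, with a median of −0.28. The summed level of the 6 markers was 121218% to 125569% in *Sox7* (+/−) and 101353% to 109865% in *Sox7* (−/−) ES cells. Such a sum follows its brightest probes. Here that was mostly *Sparc*, with means of 87978% and 77289%, which was not called between ES cells. Pluripotency markers were higher without *Sox7*, 3 of 6, with a summed level of 45086% to 48409% against 21316% to 22491%. Visceral endoderm markers were lower, 2 of 4 tested, and the 6 listed summed to 3686% to 4331% against 6899% to 7167%. Trophoblast markers were also lower in *Sox7* (−/−) ES cells, 3 of 5 tested, with a summed level of 424% to 450.4% against 822% to 838% in *Sox7* (+/−) ES cells. On bulk RNA fewer cells of a type and less RNA per cell cannot be told apart, and the part of these cell types in the levels of the inhibitors and the other members was not tested.

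Among all members, 19 of the 35 tested were called in the Dex response of *Sox7* (+/−) cells, 8 higher and 11 lower, where 25.1% of the 18991 tested genes were called, 11% higher and 14.1% lower. In *Sox7* (−/−) cells 25 were called, 14 higher and 11 lower, where 28.7% of tested genes were called, 14.6% higher and 14.1% lower. The share of tested members called is above that of all tested genes in either genotype, but no test of the list was made. The median log2 change of the members was −0.03 and 0.02, beside 0.16 and 0.07 for all tested genes, since rises and falls balanced. Of the members called higher, 7 were shared, which is 87.5% of the *Sox7* (+/−) and 50% of the *Sox7* (−/−) calls. *Adam6b* was called in *Sox7* (+/−) cells only, and *Timp1*, *Mmp23*, *Adam15*, *Adam26b*, *Adamts1*, *Adamts16* and *Adamtsl5* in *Sox7* (−/−) cells only. Of the members called lower, 9 were shared, 81.8% of either list, with *Adamts15* and *Adamtsl4* called in *Sox7* (+/−) and *Adam12* and *Mmp17* in *Sox7* (−/−) cells only. The overlap among all tested genes is not given here, so these shares show nothing particular to the members. A call in a single genotype does not show that the responses differ, which was tested apart. With normexp background correction in place of the processed signal, 22 of the 61 calls over the 5 comparisons were lost with no change of direction. They were *Mmp14*, *Adam22*, *Adam32*, *Adam6b*, *Adamts4*, *Adamts8*, *Adamts15* and *Adamtsl4* in the *Sox7* (+/−) response, and *Mmp14*, *Mmp23*, *Adam12*, *Adam26b*, *Adam32* and *Adamts4* in the *Sox7* (−/−) response. Those between the genotypes were *Mmp23*, *Adamts16* and *Adamtsl4* in XEN-like cells, *Adamtsl5* and *Adam26b* in ES cells, and *Adam12*, *Adam26b* and *Adamts16* for the difference in response.

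**Figure D2:**
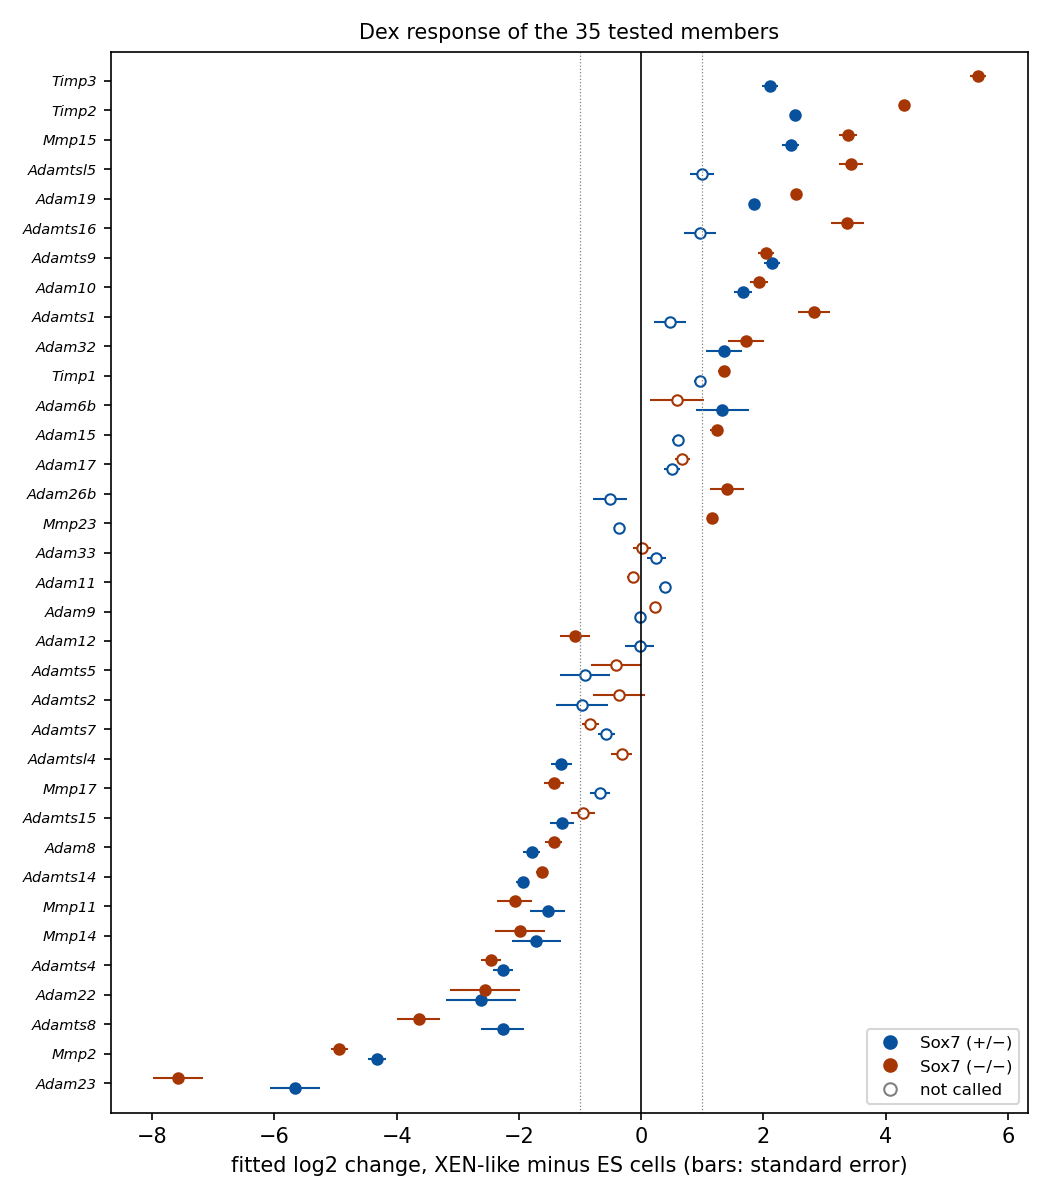
Dex response of the 35 tested members in Sox7 (+/−) (blue) and Sox7 (−/−) cells (red), as fitted log2 change with its standard error. Filled points were called, dotted lines mark 2-fold, and members are ordered by the mean of both responses. Timp3 and Timp2 are at the top and Mmp2 and Adam23 at the bottom, where the XEN-like level was below background and the fitted change is no measured fold.

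The matrix metalloproteases were mostly dim. Of 23 genes 6 were tested: none of the 4 collagenases, 1 of 2 gelatinases, 1 of the 5 stromelysins, matrilysin and metalloelastase, 3 of 6 membrane-type enzymes and *Mmp23*. *Mmp9*, a gelatinase, was not well above background on any array. *Mmp2*, the other gelatinase, which degrades collagen of basement membranes, had levels of 62.8%, 59.4% and 52.3% in *Sox7* (+/−) and 63.3%, 62.4% and 57.8% in *Sox7* (−/−) ES cells. On all 6 XEN-like arrays it was not well above background, with readings between 1.72% and 3.26%. The ES groups overlapped and *Mmp2* was thus at least 5.31-fold lower with Dex in *Sox7* (+/−) (adjusted p = 2.8e-09) and at least 8.06-fold lower in *Sox7* (−/−) cells (adjusted p = 7.6e-10). Such a bound sets the measured group against the lowest signal that counts as well above background on each array of the dim group, or the probe's own reading where that is higher. The adjusted p beside a bound, here and below, belongs to the fitted change, which uses the readings below background. The bound itself was not tested. The probe lies at chr8:95376840-95376899.

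*Mmp14*, the membrane-type enzyme that activates Mmp2, also fell, by 1.71 on the log2 scale (SE 0.41, adjusted p = 0.0041) in *Sox7* (+/−) and by 1.98 (SE 0.41, adjusted p = 0.0015) in *Sox7* (−/−) cells. Its level was 33.9% to 40.5% and 30.2% to 35.1% in the ES groups. In XEN-like cells it was well above background on 2 of 3 *Sox7* (+/−) arrays and 1 of 3 *Sox7* (−/−) arrays, with readings of 5.08% to 17.5%. Fibroblast markers fell beside *Mmp2* and *Mmp14*, 3 of 4 tested in *Sox7* (+/−) and 2 of 4 in *Sox7* (−/−) cells. The 6 listed summed to 366% to 414% without and 48.0% to 83.5% with Dex in *Sox7* (+/−) cells, and to 428% to 455% and 50.1% to 60.6% in *Sox7* (−/−) cells. The fibroblast markers *Dcn* and *Lum* were not well above background on any array, and the part of fibroblasts in these falls was not tested.

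*Mmp11*, stromelysin-3, was at 342%, 374% and 339% in *Sox7* (+/−) and at 628%, 638% and 684% in *Sox7* (−/−) ES cells. With Dex the levels were 193%, 133% and 70.3% in *Sox7* (+/−) and 162%, 167% and 137% in *Sox7* (−/−) cells. All XEN-like arrays lay below all ES arrays, and the spread was widest in the *Sox7* (+/−) XEN-like cells. *Mmp11* fell 2.89-fold (log2 −1.53, SE 0.28, adjusted p = 0.00087) and 4.19-fold (log2 −2.07, SE 0.28, adjusted p = 8.8e-05). *Mmp17*, a membrane-type enzyme held by a GPI anchor, fell by 1.42 (adjusted p = 2.4e-05) in *Sox7* (−/−) cells, and in *Sox7* (+/−) cells its change was −0.67 (adjusted p = 0.0046).

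*Mmp15* was the membrane-type enzyme that rose. Its levels were 43.3%, 38.2% and 37.1% in *Sox7* (+/−) ES cells and 216%, 196% and 234% after Dex. In *Sox7* (−/−) cells they went from 22.0%, 21.6% and 32.2% to 250.3%, 261% and 267%. No groups overlapped, and Dex raised it 5.45-fold (log2 2.45, SE 0.14, adjusted p = 2e-07) in *Sox7* (+/−) and 10.5-fold (log2 3.39, SE 0.14, adjusted p = 1.4e-08) in *Sox7* (−/−) cells. The difference of 0.94 (SE 0.20, adjusted p = 0.0077) was under 2-fold and was not called. The probe lies at chr8:97897703-97897762.

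*Mmp23*, a short membrane-bound enzyme, had levels of 79.8%, 81.0% and 75.3% in *Sox7* (+/−) ES cells and 64.5%, 55.3% and 64.6% with Dex. In *Sox7* (−/−) cells the levels were 57.3%, 57.5% and 56.5% without Dex and 132%, 126% and 124% with Dex. The *Sox7* (−/−) XEN-like arrays were above all others. The Dex response was −0.36 (SE 0.07, adjusted p = 0.0017) in *Sox7* (+/−) and 1.15 (SE 0.07, adjusted p = 2.9e-07) in *Sox7* (−/−) cells, and differed by 1.51 (SE 0.10, adjusted p = 5.7e-06). Between ES cells the groups did not overlap, and *Mmp23* was lower without *Sox7* by a log2 difference of −0.46, which is under 2-fold. Between XEN-like cells it was 2.07-fold higher without *Sox7* (log2 1.05, adjusted p = 6.2e-06). Without *Sox7* (+/−) XEN-like replicate 2 that value was 0.98, just under 2-fold.

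Of 33 Adam genes 14 were tested. *Adam10*, the main sheddase of Notch and cadherins, rose 3.17-fold (log2 1.66, SE 0.15, adjusted p = 4.9e-06) in *Sox7* (+/−) cells, from 545% ± 9.38 to 1763% ± 426 (SD, n = 3). In *Sox7* (−/−) cells it rose 3.81-fold (log2 1.93, SE 0.15, adjusted p = 1.2e-06), from 375% ± 5.83 to 1430.5% ± 59.0. *Adam17*, which releases TNF and EGF receptor ligands, was not called, with changes of 0.50 (adjusted p = 0.0066) and 0.68 (adjusted p = 0.00095). *Adam19*, a sheddase of neuregulin, was at 809.7%, 805% and 823% in *Sox7* (+/−) ES cells and at 3083%, 2942% and 2725% with Dex. Its *Sox7* (−/−) levels were 434%, 468% and 461% without Dex and 2562%, 2737% and 2605% with Dex. All XEN-like arrays were above all ES arrays. *Adam19* rose 3.59-fold (log2 1.84, SE 0.07, adjusted p = 5.6e-09) and 5.80-fold (log2 2.54, SE 0.07, adjusted p = 4.5e-10), and its difference in response of 0.69 (adjusted p = 0.00052) was under 2-fold. *Adam15*, a sheddase with an integrin-binding domain, rose by 1.24 (adjusted p = 1.7e-06) in *Sox7* (−/−) cells and had 0.61 (adjusted p = 0.0004) in *Sox7* (+/−) cells.

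*Adam23* was the member with the largest fitted fall. It shares with *Mmp2*, *Adamts4* and *Adamts8* that the XEN-like level was below background, so the order of the true falls was not measured. It belongs to the Adam proteins without protease activity and binds integrins. Its levels were 401%, 441% and 379.9% in *Sox7* (+/−) and 696%, 759.9% and 760.0% in *Sox7* (−/−) ES cells. On all 6 XEN-like arrays it was not well above background, with readings from 1.69% to 10.3%. It was thus at least 36.2-fold lower on Dex in *Sox7* (+/−) (adjusted p = 8.8e-07) and at least 97.4-fold lower in *Sox7* (−/−) cells (adjusted p = 7.6e-08). The other tested probes of the gene were below background in XEN-like cells too, where the first was at least 2.25-fold and at least 6.77-fold lower and the second at least 2.09-fold and at least 3.61-fold lower. The fitted difference in response was −1.91 (SE 0.58, adjusted p = 0.033) but rests on groups below background. By the first of the other probes it was −0.86 (adjusted p = 0.16) and not called, and by the second −1.48 (adjusted p = 0.045) and called. By the main probe it was called without any 1 of 4 arrays (replicate 3 of the *Sox7* (+/−) and each replicate of the *Sox7* (−/−) XEN-like cells). It was not called without any other, with values from −2.30 to −1.32. With the slide as a block its adjusted p was 0.18. The main probe lies at chr1:63639339-63639398.

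*Adam22*, a relative of *Adam23* that likewise has no protease activity, was at 26.8%, 19.5% and 25.5% in *Sox7* (+/−) and at 41.4%, 39.4% and 47.1% in *Sox7* (−/−) ES cells. With Dex the readings were 1.94%, 2.29% and 12.9% in *Sox7* (+/−) and 6.27%, 9.31% and 6.48% in *Sox7* (−/−) cells, and 1 of 3 arrays in each of these groups was well above background. The XEN-like readings lay below all ES levels. The falls were −2.62 (SE 0.58, adjusted p = 0.0027) and −2.56 (SE 0.58, adjusted p = 0.0028), and without *Sox7* (+/−) XEN-like replicate 3 the first was −3.49. *Adam8*, a protease of immune cells and tumours, fell by 1.79 (adjusted p = 1.5e-06) and 1.43 (adjusted p = 6.9e-06).

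The remaining called Adam genes were dim. *Adam32*, known from testis, rose by 1.35 (SE 0.29, adjusted p = 0.0025) in *Sox7* (+/−) cells, and without *Sox7* (+/−) XEN-like replicate 3 this was 0.998 and under 2-fold. In *Sox7* (−/−) cells it was not well above background without Dex and at least 3.07-fold higher with Dex (adjusted p = 0.00045). *Adam6b* was called higher in *Sox7* (+/−) cells (1.33, SE 0.44, adjusted p = 0.023), although it was well above background on 1 of these 6 arrays. Its call was lost without *Sox7* (+/−) ES replicate 2 (1.11), ES replicate 3 (0.91), XEN-like replicate 2 (1.26) or XEN-like replicate 3 (1.23), and no fold is given.

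*Adam26b*, another gene known from testis, was at 17.4%, 16.9% and 16.6% in *Sox7* (+/−) ES cells. Its *Sox7* (+/−) XEN-like readings were 12%, 17.2% and 8.28%, of which 1 was well above background. The *Sox7* (−/−) readings were 6.13%, 6.43% and 3.72% without Dex, none well above background, and 12.3%, 17.2% and 12.9% with Dex, of which 2 were. The *Sox7* (−/−) ES arrays were thus the lowest. *Adam26b* was at least 1.87-fold lower in *Sox7* (−/−) than in *Sox7* (+/−) ES cells. In *Sox7* (−/−) cells it was at least 1.53-fold higher with than without Dex (adjusted p = 0.0011). It passed the filter through the *Sox7* (+/−) ES cells alone. A difference from that group was therefore favoured by the filter, and no p-value is given for it. The fitted difference in response, 1.91 (SE 0.39), also uses that group. With the slide as a block the ES difference lost its call.

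*Adam12*, a protease of mesenchyme and muscle, was at 10.4%, 8.06% and 14.9% in *Sox7* (+/−) ES cells and at 11%, 7.68% and 14% with Dex. In *Sox7* (−/−) cells it was at 17.2%, 17.3% and 17.7% without and 8.06%, 9.46% and 7.26% with Dex. In *Sox7* (+/−) cells the groups with and without Dex overlapped, and the *Sox7* (−/−) ES cells were highest. The gene was well above background on 2 of 3 *Sox7* (+/−) and 1 of 3 *Sox7* (−/−) XEN-like arrays. Dex changed it by −0.03 (SE 0.24, adjusted p = 0.93) in *Sox7* (+/−) and by −1.08 (SE 0.24, adjusted p = 0.0027) in *Sox7* (−/−) cells. Without *Sox7* (−/−) XEN-like replicate 3 the second value was −0.99. The difference in response of −1.06 (SE 0.34, adjusted p = 0.045) was kept without *Sox7* (+/−) ES replicate 3 or XEN-like replicate 2, was lost without any other array, with values between −1.29 and −0.85, and had an adjusted p of 0.13 with the slide as a block.

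**Figure D3:**
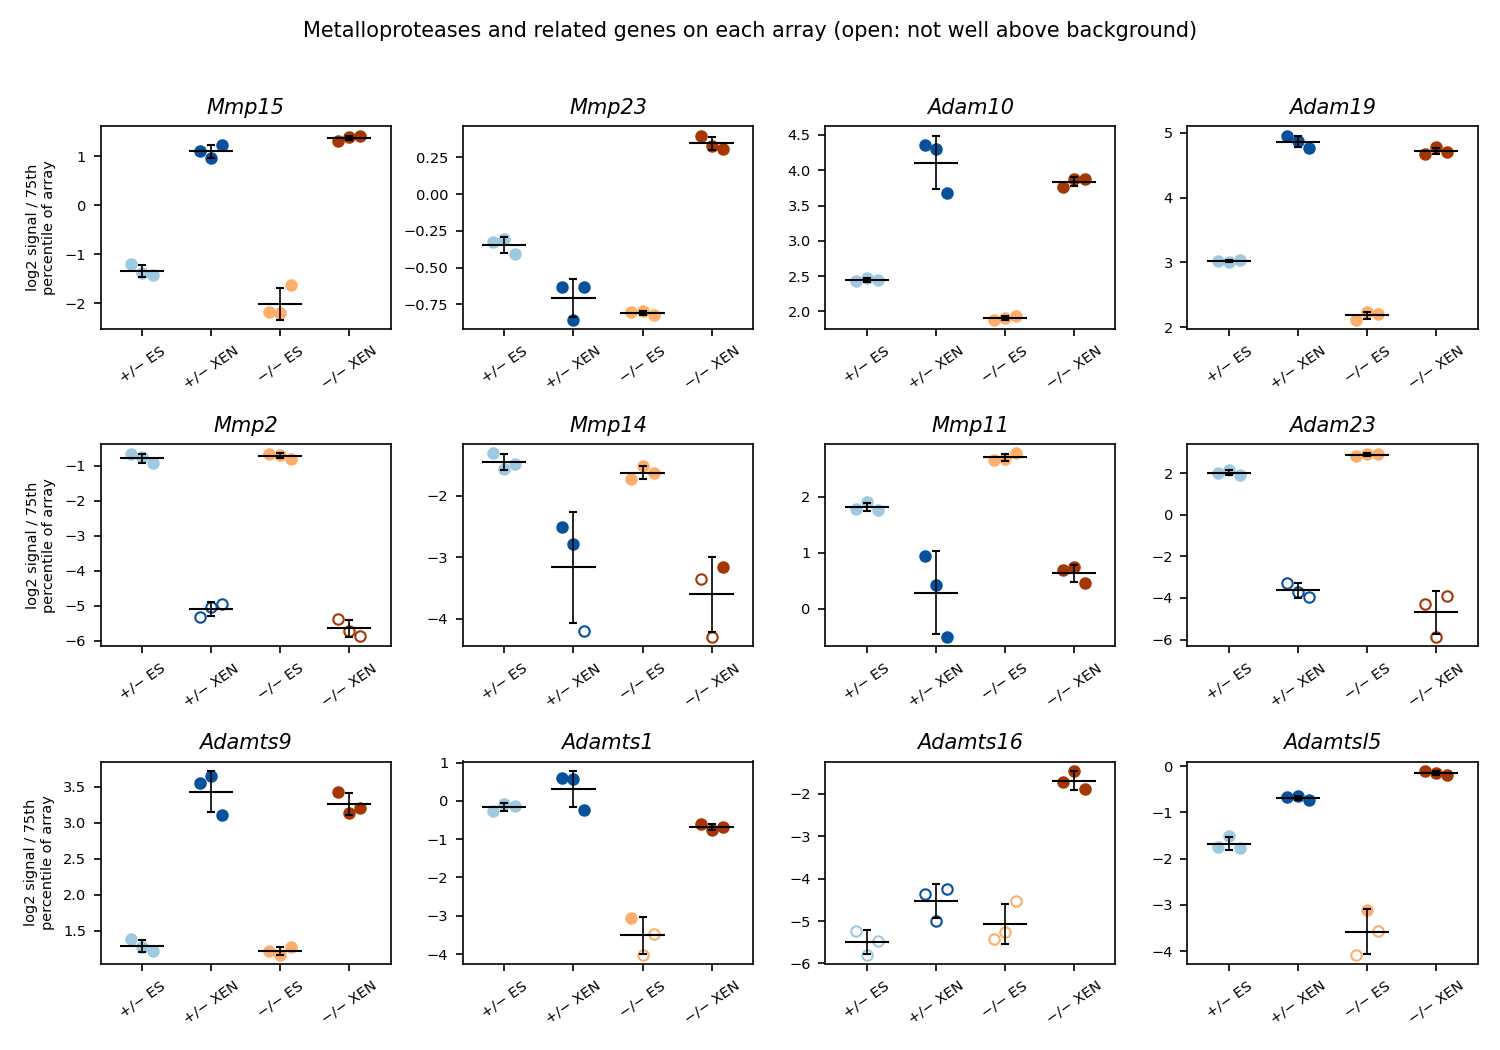
Levels of 12 proteases and related genes on each array, as log2 of the signal relative to the array's 75th percentile. Points are arrays (n = 3 a group; open where not well above background), lines group means and bars ± SD, and the vertical scale differs between panels. Mmp15, Adam10, Adam19 and Adamts9 are higher and Mmp2, Mmp14, Mmp11 and Adam23 lower in XEN-like cells of both genotypes, whereas Adamts1, Adamtsl5, Mmp23 and Adamts16 differ between the genotypes.

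Of 19 Adamts genes 10 were tested, and of the 7 hyalectanases, which cut proteoglycans such as versican and aggrecan, 6 were. *Adamts9*, a hyalectanase, was at 261%, 242% and 232% in *Sox7* (+/−) ES cells and at 1172%, 1252% and 859% with Dex. In *Sox7* (−/−) cells it was at 233%, 225% and 241% without and 1081%, 883% and 924% with Dex. The genotypes overlapped, and all XEN-like arrays were above all ES arrays. *Adamts9* rose 4.42-fold (log2 2.14, SE 0.13, adjusted p = 3.2e-07) and 4.12-fold (log2 2.04, SE 0.13, adjusted p = 3.6e-07), and the second tested probe rose by 2.67 and 1.96. It was the single hyalectanase called higher in both genotypes.

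*Adamts4* and *Adamts8*, hyalectanases too, were well above background in ES cells of both genotypes and on none of the XEN-like arrays by the probes read here. *Adamts4* was at 27.7%, 27.3% and 23.8% in *Sox7* (+/−) and at 28.9%, 34.3% and 31.2% in *Sox7* (−/−) ES cells, and read 4.39% to 7.09% with Dex. It was at least 2.40-fold lower with Dex in *Sox7* (+/−) (adjusted p = 9.6e-07) and at least 4.14-fold lower in *Sox7* (−/−) cells (adjusted p = 4e-07). *Adamts8* was at 47.6%, 34.8% and 43.7% in *Sox7* (+/−) and at 64.5%, 70.0% and 57.2% in *Sox7* (−/−) ES cells, and read 4.21% to 13.8% with Dex. The gene was thus at least 3.61-fold (adjusted p = 0.00028) and at least 8.34-fold (adjusted p = 7e-06) lower. In both genes all XEN-like readings of these probes lay below all ES levels. A second *Adamts8* probe, too dim to be tested, disagreed. It passed background on 2 arrays, both of XEN-like cells that lack *Sox7*, and in *Sox7* (+/−) cells it read 4.31%, 7.09% and 7.28% without and 11.5%, 14% and 15.7% with Dex. *Adamts15*, of the same group, fell by 1.29 (adjusted p = 0.00021) in *Sox7* (+/−) cells and had −0.96 (adjusted p = 0.0014) in *Sox7* (−/−) cells. *Adamts14*, a procollagen N-propeptidase that trims the ends of fibrillar collagens, fell by 1.94 (adjusted p = 1e-07) and 1.62 (adjusted p = 3e-07).

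*Adamts1*, the hyalectanase found in many tissues, was at 82.8%, 94.9% and 91.2% in *Sox7* (+/−) ES cells and at 152%, 148% and 84.7% with Dex. The *Sox7* (−/−) ES arrays read 12.1%, 6.18% and 8.97%, of which 1 was well above background, and the *Sox7* (−/−) XEN-like arrays 65.4%, 58.9% and 62.0%. The *Sox7* (−/−) ES cells lay far below the other groups, and the *Sox7* (+/−) groups overlapped. The Dex response was 0.47 (SE 0.26, adjusted p = 0.13) in *Sox7* (+/−) and 2.83 (SE 0.26, adjusted p = 4.2e-06) in *Sox7* (−/−) cells, and the responses differed by 2.36 (SE 0.36, adjusted p = 0.0012). Between ES cells the difference was −3.35 (SE 0.26, adjusted p = 7.4e-06). Between XEN-like cells it was −0.999 (adjusted p = 0.014), just under 2-fold. With normexp background correction the called values were kept but smaller, at −1.82 between ES cells, 1.43 for the *Sox7* (−/−) Dex response and 1.06 for the difference. The probe lies at chr16:85795044-85795103.

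*Adamtsl5*, which binds fibrillin, was also lowest in *Sox7* (−/−) ES cells. Unlike *Adamts1* it was highest in *Sox7* (−/−) XEN-like cells, but only by its main probe. The levels were 29.8%, 34.9% and 29.4% in *Sox7* (+/−) ES cells and 62.9%, 63.9% and 59.9% with Dex. *Sox7* (−/−) ES arrays read 5.94%, 11.6% and 8.48%, of which 1 was well above background, and *Sox7* (−/−) XEN-like arrays 93.3%, 90.0% and 87.8%. No groups overlapped. Dex raised it by 3.43 (SE 0.19, adjusted p = 1e-07) in *Sox7* (−/−) cells, with 0.99 (SE 0.19, adjusted p = 0.0012) in *Sox7* (+/−) cells, and the responses differed by 2.44 (SE 0.27, adjusted p = 0.00014). Between ES cells the difference was −1.90 (adjusted p = 4.7e-05). With normexp background correction these values were 1.90 and 1.13 for the *Sox7* (−/−) response and the difference in response, still called, and −0.79 between ES cells. The second tested probe was not well above background in *Sox7* (−/−) ES cells. By it the gene was at least 4.82-fold higher with Dex in *Sox7* (−/−) cells and at least 3.51-fold lower without *Sox7* in the ES cells, and its *Sox7* (+/−) response was 0.78. Between XEN-like cells the probes pointed in opposite directions and neither was called. The main probe gave 0.54 (adjusted p = 0.053) and the second −0.32 (adjusted p = 0.29). The main probe lies at chr10:79805527-79805586.

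*Adamts16*, an enzyme that cuts fibronectin, reached levels well above background in 1 group, the *Sox7* (−/−) XEN-like cells, at 30.1%, 36.4% and 27.0%. The other groups read 1.80% to 2.66%, 3.14% to 5.26% and 2.34% to 4.31% in *Sox7* (+/−) ES, *Sox7* (+/−) XEN-like and *Sox7* (−/−) ES cells. Compared with *Sox7* (+/−) XEN-like cells it was at least 2.83-fold higher there and compared with *Sox7* (−/−) ES cells at least 3.40-fold. It passed the filter through this group alone, so that it differed followed from the filter, and no p-value is given. The fitted difference in response, 2.41 (SE 0.37), rests on groups below background. The probe lies at chr13:70867148-70867207. *Adamtsl4*, another fibrillin-binding protein, fell by 1.30 (adjusted p = 7.8e-05) in *Sox7* (+/−) cells and had −0.32 (adjusted p = 0.12) in *Sox7* (−/−) cells. It was higher by 1.08 (adjusted p = 0.0011) in *Sox7* (−/−) XEN-like cells, and this was 0.99 with the slide as a block and also when replicate 1 of the XEN-like cells of either genotype was left out.

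Between ES cells of the 2 genotypes, 5 members were called, all lower in *Sox7* (−/−) cells, where 8.6% of tested genes were called, 1.97% higher and 6.63% lower. They were *Timp2*, *Timp3*, *Adamts1*, *Adamtsl5* and *Adam26b*, and the median over the 35 members was −0.17, beside 0.11 for all tested genes. *Adam26b* passed the filter through the *Sox7* (+/−) ES cells alone, so its difference was favoured by the filter. With the slide as a block the differences were −2.42 for *Timp2*, −2.69 for *Timp3*, −3.47 for *Adamts1* and −1.97 for *Adamtsl5*. Only the *Sox7* (−/−) XEN-like cells lay on both slides, with a single array on slide 1. The block therefore rests on that array and cannot tell slide from genotype between ES cells. Without Dex all *Sox7* (−/−) arrays lie on slide 1 and all *Sox7* (+/−) arrays on slide 2, so no value within a slide can be had. Between XEN-like cells 3 members were called, *Mmp23*, *Adamts16* and *Adamtsl4*, all higher in *Sox7* (−/−) cells, where 7.55% of tested genes were called, 4.15% higher and 3.4% lower. Within slide 2 these differences were 1.02 for *Mmp23*, 2.86 for *Adamts16* and 0.99 for *Adamtsl4*. That *Adamts16* differed followed from the filter, which it passed through the *Sox7* (−/−) XEN-like cells alone. Without *Sox7* (+/−) XEN-like replicate 3 the count was 5, 4 higher and 1 lower. All 4 tested visceral endoderm markers were also higher in *Sox7* (−/−) XEN-like cells, with a summed level of the 6 listed markers of 13761% to 15444% against 2460% to 3512%. Of 5 tested trophoblast markers 3 were called higher. Among these *Hand1* was not well above background on any XEN-like array, and *Cdx2* on none of the *Sox7* (+/−) XEN-like arrays. Also higher were 2 of 6 pluripotency markers, *Esrrb* (4.63) and *Zfp42* (1.11). The 6 summed to 7220.1% to 7896% against 4898% to 5577%. This sum was mostly *Klf4*, with means of 6256% and 4887%, which was not called between XEN-like cells (0.36). The part of all these markers in the 3 differences was not tested.

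**Figure D4:**
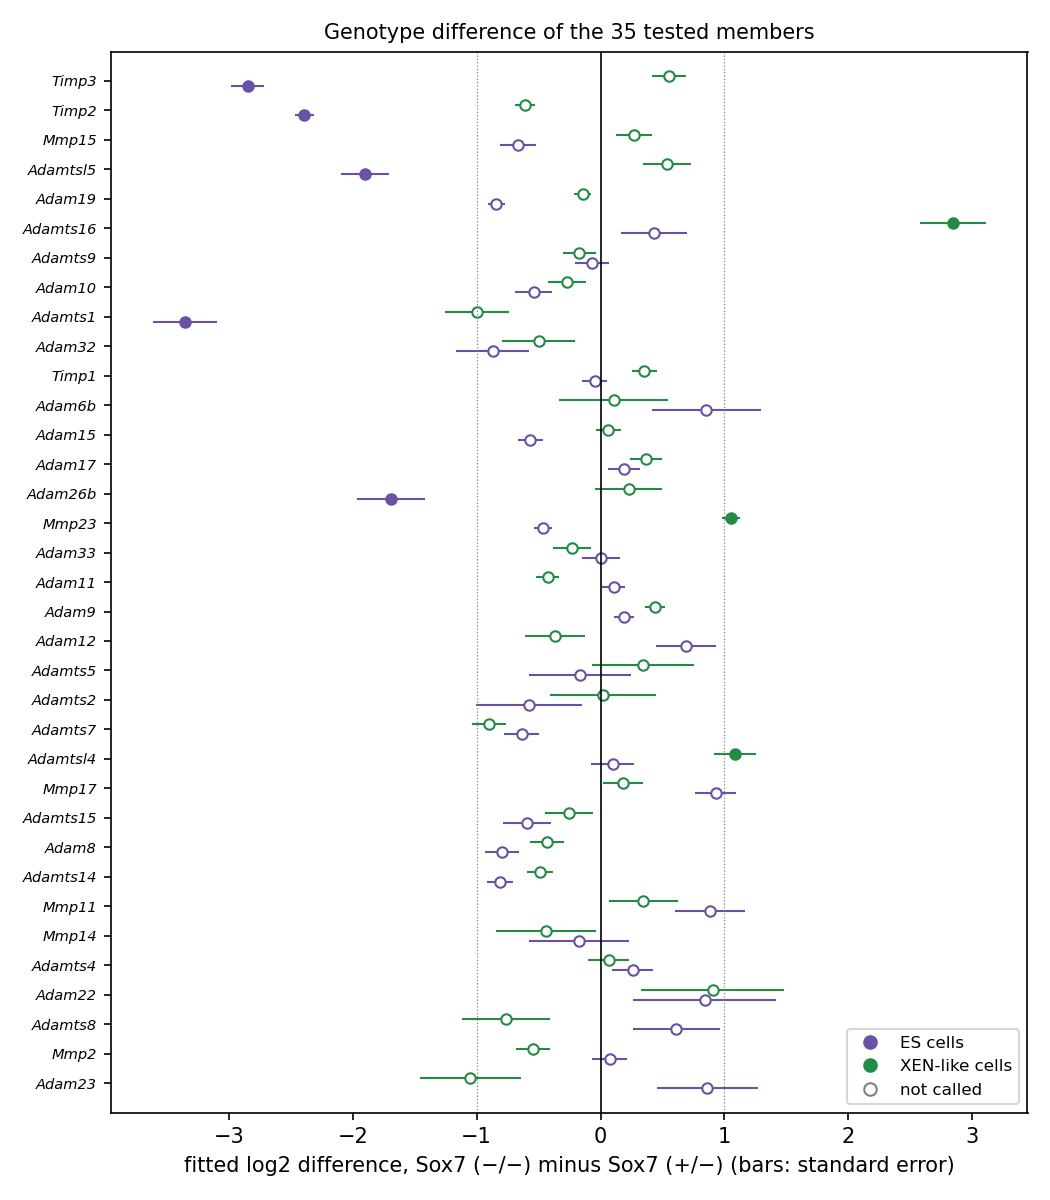
Difference between Sox7 (−/−) and Sox7 (+/−) cells of the 35 tested members in ES cells (purple) and XEN-like cells (green), as fitted log2 difference with its standard error. Filled points were called and dotted lines mark 2-fold; where both groups were below background, as for Adam23 in XEN-like cells, no fold can be read. The 5 calls in ES cells lie to the left and the 3 in XEN-like cells to the right of 0.

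Tested directly, the response to Dex differed between genotypes for 9 members, where 10.2% of tested genes were called. In 7 the response was more positive in *Sox7* (−/−) cells (7.05% of tested genes) and in 2, *Adam12* and *Adam23*, more negative (3.16%). The 7 were *Timp3*, *Adamtsl5*, *Adamts16*, *Adamts1*, *Adam26b*, *Timp2* and *Mmp23*. Of these *Adamts16* was tested through the *Sox7* (−/−) XEN-like cells alone, so that it differed followed from the filter. *Adam26b* was tested through the *Sox7* (+/−) ES cells alone, so its difference was favoured by the filter. In *Timp2*, *Timp3*, *Adamts1*, *Adamtsl5* and *Adam26b* the ES levels differed and no difference between XEN-like cells was called, whereas in *Mmp23* and *Adamts16* the XEN-like levels differed and no difference between ES cells was called. These comparisons share arrays and are not independent of each other.

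The 7 tested members that were called in no comparison were *Adam9*, *Adam11*, *Adam17*, *Adam33*, *Adamts2*, *Adamts5* and *Adamts7*, named here after their values were seen. Their Dex responses ranged from −0.96 to 0.50 in *Sox7* (+/−) and from −0.84 to 0.68 in *Sox7* (−/−) cells. The 49 members that were not tested were 19 Adam, 17 Mmp, 9 Adamts, 3 Adamtsl and 1 Timp gene, and 38 of them were not well above background on any array with any probe.

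Genes that activate or hold back metalloproteases were read as a list of 18, of which 15 were tested. On Dex 4 rose and 2 fell in each genotype, with a median of 0.35 in the *Sox7* (+/−) and 0.18 in the *Sox7* (−/−) response. Of all tested genes 11% rose and 14.1% fell in *Sox7* (+/−) cells, with a median of 0.16. In *Sox7* (−/−) cells 14.6% rose and 14.1% fell, with a median of 0.07. No test was made of this list or of those below. *Tspan17* and *Tspan5*, tetraspanins that guide Adam10 through the cell, moved in opposite directions. *Tspan17* fell by 1.71 (adjusted p = 5e-08) and 4.03 (adjusted p = 1e-10), and *Tspan5* rose by 1.45 (adjusted p = 8.8e-08) and 2.44 (adjusted p = 1.7e-09). The fall of *Tspan17* differed between the genotypes by −2.32 (adjusted p = 9.4e-07). *Lrp1*, an endocytic receptor that clears proteases and their inhibitors, fell by 2.03 (adjusted p = 2.5e-06) and 2.42 (adjusted p = 5.2e-07). *Pcsk5*, a proprotein convertase, was not well above background on any ES array and at least 3.49-fold higher in *Sox7* (+/−) XEN-like cells. It passed the filter through that group alone, so that it differed followed from the filter, and no p-value is given.

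Of 14 other extracellular metallopeptidases 7 were tested, and 2 rose and 2 fell in each genotype. *Enpep*, an aminopeptidase that cuts angiotensin, rose by 4.46 (adjusted p = 2.4e-07) in *Sox7* (+/−) cells and was at least 13.5-fold higher with Dex in *Sox7* (−/−) cells (adjusted p = 3.5e-08). *Mep1b*, a meprin subunit, fell by 3.47 (adjusted p = 2.9e-07) and 4.98 (adjusted p = 1.5e-08). *Anpep*, aminopeptidase N, fell by 3.15 (adjusted p = 3.2e-08) in *Sox7* (−/−) cells and had 0.52 (adjusted p = 0.012) in *Sox7* (+/−) cells, a difference of −3.67 (adjusted p = 1.8e-06). *Bmp1*, a procollagen C-proteinase, rose by 1.10 (adjusted p = 3e-05) and 1.92 (adjusted p = 3.4e-07).

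Of 17 proteins that Adam enzymes shed, 11 genes were tested. On Dex 2 rose and 3 fell in *Sox7* (+/−) cells and 4 rose and 3 fell in *Sox7* (−/−) cells. *Cdh1*, E-cadherin, fell by 3.82 (adjusted p = 1.5e-08) and 2.22 (adjusted p = 6.5e-07), and *Jag1*, a Notch ligand, by 3.45 (adjusted p = 9e-06) and 3.05 (adjusted p = 1.8e-05). Only 1 of the 3 *Sox7* (+/−) arrays with Dex had *Jag1* well above background, with readings of 4.35% to 13.9%. *App*, the amyloid precursor protein, rose by 1.91 (adjusted p = 1.2e-08) and 2.98 (adjusted p = 4.1e-10). *Dll1*, another Notch ligand, had 0.63 (adjusted p = 0.00022) in *Sox7* (+/−) cells and was at least 3.72-fold higher with Dex in *Sox7* (−/−) cells (adjusted p = 3.1e-09).

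Of 13 substrates and partners of Adamts proteins 12 were tested. On Dex 2 rose and 6 fell in *Sox7* (+/−) and 1 rose and 5 fell in *Sox7* (−/−) cells, and the median change was −1.28 and −1.02. *Col1a1*, *Vwf* and *Bcan*, which encode a chain of collagen I, von Willebrand factor and brevican, were not well above background on any XEN-like array. *Col1a1* was at least 7.96-fold (adjusted p = 3.6e-08) and at least 24.5-fold lower (adjusted p = 5.2e-09), and *Vwf* at least 6.70-fold (adjusted p = 1e-06) and at least 11.3-fold lower (adjusted p = 2e-08). *Bcan* was lower by at least 2.09-fold (adjusted p = 0.0009) and at least 7.09-fold (adjusted p = 5.4e-05). *Col2a1*, a chain of collagen II, fell by 4.25 (adjusted p = 1.3e-05) and 1.27 (adjusted p = 0.026), and was well above background on 1 and 2 of the 3 XEN-like arrays of each genotype.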

How the data were processed

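Cells of 4 groups were measured on one-colour Agilent mouse arrays, 3 per group. The authors deposited, for each array, intensity values written by Agilent Feature Extraction 10.7.3.1 (version per the labels), whose processed signal has background subtracted and no scaling across arrays. They also deposited a table of intensity values, which lay within 0.50% of the mean spot signal and so has neither. Here the 59305 spots besides controls were read without 139 to 190 spots per array marked as outliers. The log2 of the deposited processed signal was set relative to the array's 75th percentile (252.3 to 415.9), and spots of a probe were averaged. The 25938 probes that passed the filter on dim signals were fitted with limma 3.58.1 (R 4.3.3) over all 12 arrays, a mean for each group. The 5 comparisons were both Dex responses, their difference, and *Sox7* (−/−) against *Sox7* (+/−) cells without and with Dex. Thresholds were those of the study.

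The members, the other gene lists, the markers and the rules below were chosen with earlier results of these data known. All members called in a comparison were named, and those with a log2 change over 2 or called for the difference in response were given by array. Of the other lists, up to 4 called genes with the largest Dex responses were named. All 84 member names are current RefSeq symbols. Promoters are RefSeq's on GRCm38.p6, and probe positions are on mm9 as in the files. The promoter entries kept cover 53 member genes. Entries on a whole chromosome were left out, so more members may have an entry. Adam genes were not split by their zinc-binding motif, since no protein sequences were used here. The arrays, 3 a group, limit the precision. The procedure was tested on simulated data. Tried as alternatives were normexp background correction (offset 50), quantile normalization, scaling by 8 spike-in probes, the deposited table with and without quantile normalization, looser and stricter filters, the mean of a gene's probes, no minimum fold, a fit of the compared groups alone, the slide or the replicate number as a block, and leaving out single arrays. Keeping outlier-marked spots was added after seeing the data. Same-numbered arrays of different groups deviated from their group means with correlations of −0.051 to 0.126, and were not paired.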

Additional observations from a re-analysis of the deposited data

Results flagged for a closer look

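For 9 members the Dex responses of the genotypes differed past the threshold, by a test of that difference. The log2 differences, *Sox7* (−/−) minus *Sox7* (+/−), were 3.40 for *Timp3*, 2.44 for *Adamtsl5*, 2.41 for *Adamts16*, 2.36 for *Adamts1*, 1.91 for *Adam26b*, 1.78 for *Timp2*, 1.51 for *Mmp23*, −1.06 for *Adam12* and −1.91 for *Adam23*. Those of *Timp2*, *Timp3* and *Mmp23* rest on probes well above background on all 12 arrays. *Adamts16* and *Adam26b* each passed the filter through a single group, so their differences were favoured by it. For *Adam23* both XEN-like groups, for *Adamts16* all groups but *Sox7* (−/−) XEN-like cells and for *Adam26b* the *Sox7* (−/−) ES cells were not well above background, so the sizes of these differences are not measured.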

How the results depend on the processing

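None of the 61 calls of members over the 5 comparisons turned its sign under an alternative that could give its value. Calls were lost for 22 of them with normexp background correction, 19 with the quantile-normalized deposited table, 12 with that table unscaled, and 4 each with spike-in scaling and the slide block. The number of members called in the Dex response of *Sox7* (+/−) cells (19) was 11 with normexp background correction, 12 with the deposited table after quantile normalization and 11 with only probes well above background on all 12 arrays. With that filter it was 13 in *Sox7* (−/−) cells (25), 2 between ES cells (5) and 3 for the difference in response (9), because fewer members were tested. Between XEN-like cells (3) limma called 0 with normexp, although the adjusted p of *Mmp23*, *Adamts16* and *Adamtsl4* stayed under 0.05 there and their changes fell below 2-fold. The count was 1 with the quantile-normalized table, 13 with no minimum fold and 5 without *Sox7* (+/−) XEN-like replicate 3. Between ES cells it was 3 with normexp, with the deposited table and with that table quantile-normalized, and 18 with no minimum fold, which gave 16 for the difference in response. Leaving out each array gave 18 to 22 for the *Sox7* (+/−) and 25 to 26 for the *Sox7* (−/−) response, 2 to 5 between XEN-like cells, 5 to 6 between ES cells and 7 to 10 for the difference in response. With the replicate block the counts were 19, 25, 3, 5 and 9, so the pairing of replicate numbers changed no call.

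Scaling moved the median of all tested probes from 0.16 to −0.33 with the spike-in probes and to −0.23 with the unscaled table in the *Sox7* (+/−) response, from −0.09 to 0.31 and 0.24 for the difference in response, and from 0.00 to 0.24 and 0.34 between XEN-like cells. With spike-in scaling 6 members rose and 15 fell in *Sox7* (+/−) cells (8 and 11), and the difference in response was positive in 11 and negative in 0 (7 and 2), against 9 and 0 with the unscaled table and 8 and 0 with the slide block. Quantile normalization gave 3 higher and 1 lower between XEN-like cells. Signals near background allow at most a bound on the changes of *Mmp2*, *Adam23*, *Adam26b*, *Adam32*, *Adam6b*, *Adamts4*, *Adamts8* and *Adamts16*, and *Adamts1* and *Adamtsl5* were well above background on 1 of 3 *Sox7* (−/−) ES arrays. The cause of the other shifts was not tested.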
